A study of Mus musculus with 8 samples.

Results

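The genes described here are 48 neighbours of Adar on mouse chromosome 3, taken by symbol from a fixed list of genes that flank the targeted locus. Of these, 46 had a probe set naming them alone on the array. Ash1l and Tdrd10 were named by none in the annotation used here and were not measured. Each measured gene was read from its brightest probe set, by mean log2 intensity over the arrays, and 18193 genes of the whole array were read in the same way. The list gives 26 measured genes on the lower-coordinate side of Adar and 20 on the higher-coordinate side. It reaches 37 protein-coding genes away on the first side and 24 on the second in the order of the GRCm38.p6 gene table, in which 47 of the 48 were found.

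The cells were haematopoietic stem cells sorted from fetal liver of C57/B6 mice as lineage-negative, Sca-1-positive and Kit-positive. They came from 3 mice without ADAR1 (ADAR1 -/-, null), 3 with a single intact copy (ADAR1 +/-, heterozygous) and 2 wild-type mice, with 1 mouse per array. Total RNA was biotin-labelled and hybridised to Affymetrix arrays, whose summarised values are linear intensities. The sources used here do not give the age of the fetuses, the exons removed from Adar, the embryonic stem cell line of the allele or the number of backcrosses.

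As background, genes close to a targeted locus are inherited with it. A null fetus therefore carries the chromosome segment around the targeted allele on both chromosomes, a heterozygous fetus on 1 of them, and a wild-type fetus on neither. The segment next to Adar is dense in genes of unrelated function. It holds ephrin-A ligands that signal to neighbouring cells through Eph receptors, the interleukin-6 receptor, a subunit of the NuRD chromatin complex, mitochondrial proteins, and Cks1b, which cyclin-dependent kinases need to hand their inhibitor p27 to the degradation machinery.

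Adar itself read 59.7, 144 and 176 linear units on the null arrays, against 13.1, 16.1 and 9.89 on the heterozygous and 7.66 and 17.6 on the wild-type arrays. Every null array lay above every other array, and the difference from all controls (heterozygous and wild type together) was 3.22 ± 0.41 log2 units (SE; limma, adjusted p = 0.0170). Since neither the deleted exons nor the probe positions are known here, this reading does not check the genotype labels. By the transcripts Xist and Eif2s3y, null array 1 and heterozygous arrays 1 and 3 were male. The other arrays, both wild-type arrays among them, were female. Sex is thus unbalanced between the groups in every comparison, and it entered a model only as a covariate in 1 alternative. Probe sets above background, set on each array by the brightest of 27 Bacillus control probe sets, made up 40.0% to 46.4% on the null arrays and 45.6% to 61.2% on the controls. Ly6a, the gene of Sca-1, had no probe set of its own, and Kit read 9.33 to 13.3 on the null arrays, 13.2 to 23.5 on the heterozygous and 11.7 to 20.2 on the wild-type arrays. Of 12 measured stem and progenitor markers, 7 were above background on all arrays and 2 (Procr and Gfi1) on none. Summed hepatocyte markers (8 of 10 measured) lay at 64.6 to 81.9 on the null arrays, against 627 to 1087 on the heterozygous and 204 to 622 on the wild-type arrays. Summed macrophage markers (8 of 8) lay at 53.3 to 64.8 on the null, 158 to 257 on the heterozygous and 137 to 638 on the wild-type arrays. Adgre1, a defining macrophage marker, was above background on no array. Summed endothelial markers (8 of 8) ran the other way, at 686 to 782 on the null, 371 to 657 on the heterozygous and 507 to 527 on the wild-type arrays. Their median difference was 0.09 log2 units in null against wild type and 0.43 against heterozygous, and not every marker moved with the sum. Kdr read 96.2 to 111 on the null and 41.1 to 78.3 on the control arrays, while Esam read 10.9 to 24.5 and 19.3 to 91.9. Emcn was above background on no array. These 3 sums thus move with every difference between null and control arrays given below, and their part in it was not tested. In such sorted pools, fewer cells of a type and less RNA per cell cannot be told apart.

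No neighbour of Adar passed the threshold, an adjusted p of 0.05 over 45037 probe sets, in any comparison when read from its brightest probe set. Null was compared with wild type, with heterozygous and with all controls to ask which transcripts differ in cells without ADAR1, and heterozygous with wild type to ask the same of 1 lost copy. Over all genes 0.517% passed in null against wild type, 0.770% in null against heterozygous and 0.934% in null against all controls. In heterozygous against wild type 0% of genes passed (limma; 5.90% had an unadjusted p under 0.05, and 1 of the 45037 probe sets passed). At an unadjusted p under 0.05 stood 6 of 46 neighbours (13.0%) in null against wild type, beside 9.29% of all genes; 1 was higher and 5 lower, where 3.37% and 5.91% of all genes were. The count was 4 (8.70%) against heterozygous beside 13.0% of all genes, 2 higher and 2 lower beside 5.12% and 7.88%. It was 6 (13.0%) against all controls beside 13.5%, 1 higher and 5 lower beside 5.51% and 7.98%. In heterozygous against wild type it was 1 gene (2.17%), Rab13, which was lower, beside 2.90% of all genes that were lower. These comparisons share arrays and are not independent of each other. The shares of neighbours are near those of all genes or below them in 3 of the 4 comparisons, and the difference in shares was not tested.

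Most neighbours had more than 1 probe set, 93 in all over 46 genes. Of the 93, 0 passed in null against wild type, 0 against heterozygous, 0 in heterozygous against wild type and 1 against all controls, where 0.326%, 0.502%, 0.00222% and 0.582% of all probe sets did. Unadjusted, the counts were 15, 11, 4 and 15 in that order, where 7.63%, 11.3%, 5.37% and 11.5% of all probe sets stood.

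The differences ran in both directions along the segment. In null against wild type 22 neighbours lay above 0 and 24 below, with a median of -0.06 log2 units, beside -0.00013 over all genes. The median was -0.06 against heterozygous (all genes 0.06), -0.05 against all controls (all genes 0.03) and 0.10 in heterozygous against wild type (all genes -0.05). Their size was larger in null against wild type, with a median absolute difference of 0.53 beside 0.25 over all genes, and close to that of all genes against heterozygous (0.25 beside 0.28). Of the 46 neighbours 30 were above background on all arrays, 11 on some and 5 on none. Of the 30, 21 lay below 0 in null against heterozygous with a median of -0.28, beside -0.28 over all genes above background on all arrays. In heterozygous against wild type 22 of the 30 lay above 0 with a median of 0.29, beside 0.11 over those genes. Genes above background on all arrays had a median absolute difference of 0.52 in null against wild type over the whole array, beside 0.76 for the 30 neighbours. The 15 measured neighbours within 10 protein-coding genes of Adar had a median of -0.16 against wild type and -0.17 against all controls. Of these, 3 (20%) stood under an unadjusted p of 0.05 in each, beside 9.29% and 13.5% of all genes. Over genes above background on all arrays, the shares were 16.5% and 21.9%. Against heterozygous it was 2 of the 15 (13.3%), beside 13.0% of all genes. In heterozygous against wild type it was 0, beside 5.90%. The differences in shares were not tested.

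**Figure D1:**
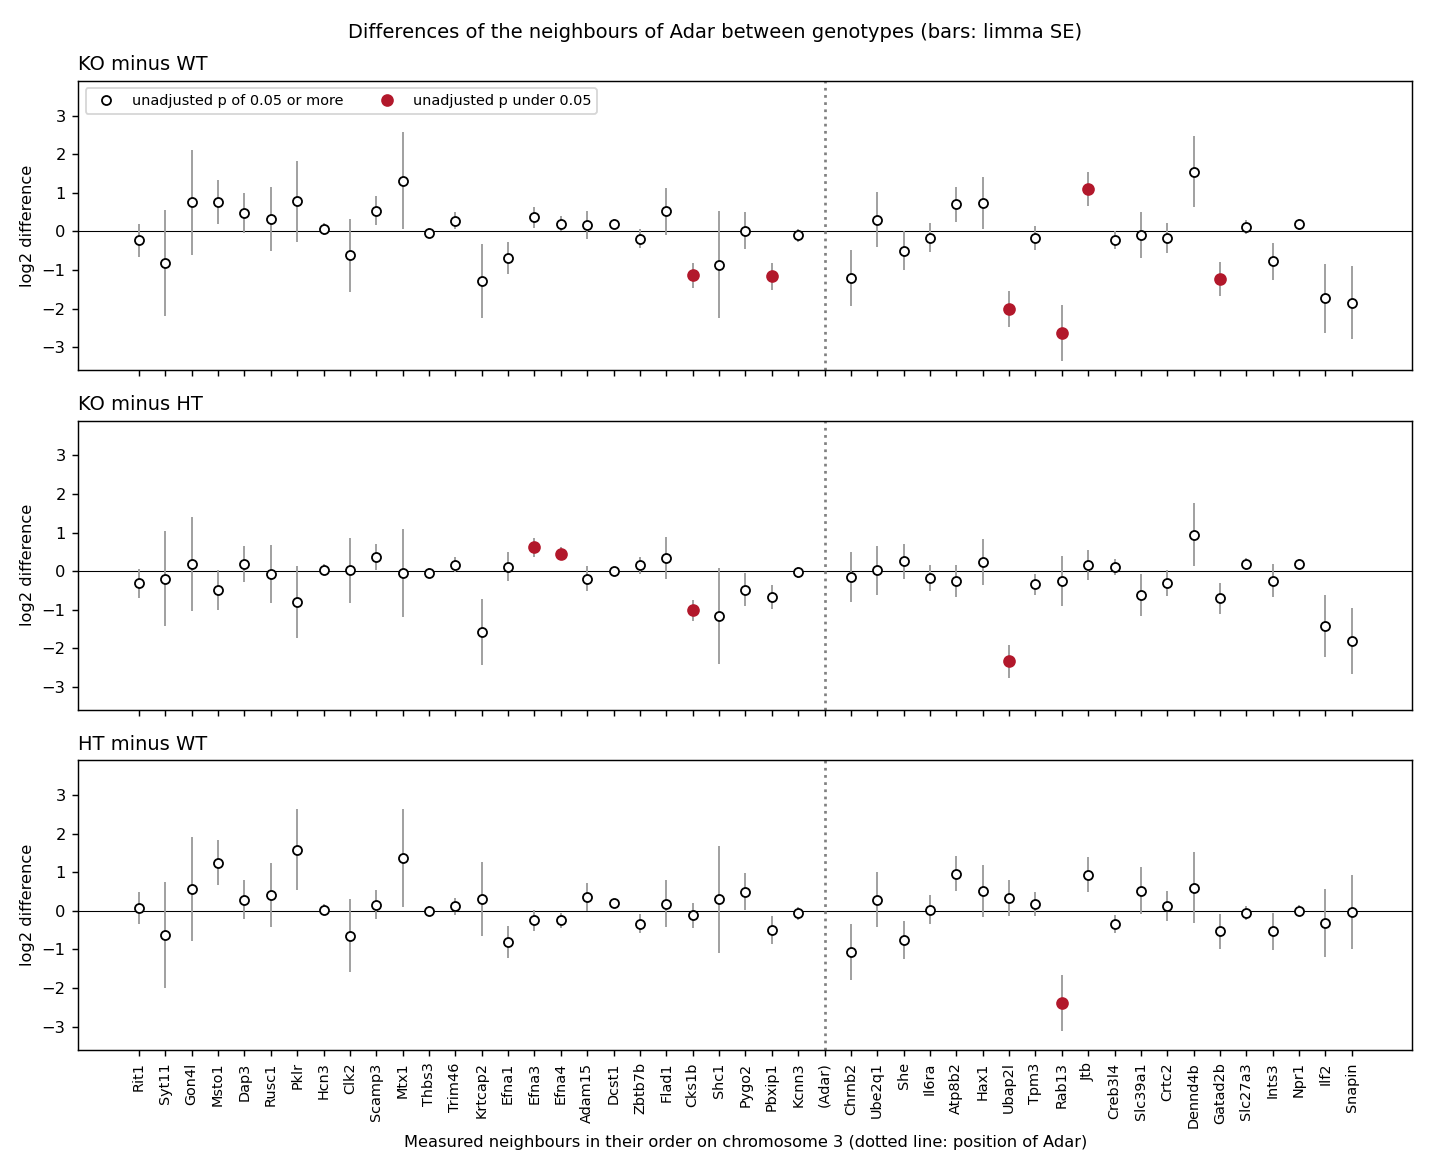
Log2 difference of each measured neighbour (points, limma standard errors as bars, filled where the unadjusted p is under 0.05) in order along chromosome 3, in panels of null (KO) minus wild type (WT), null minus heterozygous (HT) and HT minus WT. Points above and below 0 are mixed on both sides of Adar, and Rab13 and Ubap2l lie lowest in the panel of null minus wild type (-2.63 and -2.01).

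Ubap2l, an RNA-binding protein of stress granules, had the smallest p against controls among neighbours read from their brightest probe sets. Its brightest probe set read 23.8, 72.6 and 63.5 on the null arrays, 245, 288 and 200.4 on the heterozygous and 208 and 178 on the wild-type arrays. All null arrays lay below all controls, and heterozygous and wild-type arrays overlapped. On the log2 scale the null mean was 5.58 ± 0.88 (SD, n = 3) and the control mean 7.79 ± 0.27 (SD, n = 5). The difference of -2.21 ± 0.37 (SE), 4.61-fold lower in null cells, missed the threshold (limma, adjusted p = 0.0548). Against heterozygous it was -2.34 ± 0.42 (adjusted p = 0.109) and against wild type -2.01 ± 0.47 (adjusted p = 0.277). It passed against all controls under 7 of 18 alternatives, among them without null array 1 (adjusted p = 0.0232) or 2 (0.0311), and its adjusted p ran from 0.0232 to 0.248 over them. Against heterozygous it passed under 2 of 19, one of them without null array 1 (0.0364), over a range from 0.0364 to 0.373. Among the other probe sets of Ubap2l, one read 15.2, 30.2 and 83.8 on the null arrays, 53.7, 70.5 and 67.7 on the heterozygous and 119 and 88.2 on the wild-type arrays. Another read 23.1, 36.5 and 43.8 on the null arrays, 37.7, 50 and 43.8 on the heterozygous and 36.0 and 44.0 on the wild-type arrays, where the groups overlap. With the mean over all its probe sets the difference from all controls was -0.59.

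Cks1b read 399, 780 and 795 on the null arrays, against 1187, 1332 and 1300.5 on the heterozygous and 1265 and 1512 on the wild-type arrays. The null arrays again lay below all 5 controls. The log2 means were 9.29 ± 0.57 (SD, n = 3) in null and 10.36 ± 0.13 (SD, n = 5) in control cells, a difference of -1.07 ± 0.24 (SE) or 2.09-fold that did not pass (limma, adjusted p = 0.134). Against wild type the difference was -1.14 ± 0.31 (adjusted p = 0.376) and against heterozygous -1.02 ± 0.28 (adjusted p = 0.271). A second Cks1b probe set read 182, 158 and 155 on the null arrays, 228, 235 and 205 on the heterozygous and 412 and 204 on the wild-type arrays, also without overlap. With the mean of both probe sets Cks1b passed against all controls (-0.83, adjusted p = 0.0489).

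Rab13, a small GTPase of membrane traffic to cell junctions, was higher on both wild-type arrays than on all others. It read 9.79, 45.9 and 18.7 on the null arrays, 40.6, 12.1 and 28.7 on the heterozygous and 122 and 130 on the wild-type arrays. Null and heterozygous arrays overlap and both lie below wild type. The null mean of 4.35 ± 1.12 (SD, n = 3) stood beside 6.98 ± 0.06 (SD, n = 2) in wild type, a difference of -2.63 ± 0.72 (SE; limma, adjusted p = 0.375). Heterozygous cells differed from wild type by -2.39 ± 0.72 (adjusted p = 0.891), so neither difference passed. Rab13 had a single probe set.

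Ubap2l, Cks1b and Rab13 had the smallest p among the neighbours when each was read from its brightest probe set. Other probe sets of Ilf2 and Rusc1, given below, had a smaller p than all 3 of these genes. Other probe sets of Gatad2b, Ube2q1, Snapin and Syt11 had a smaller p than Rab13. The promoters of Ubap2l, Cks1b and Rab13 are shown as the 250 bases before an annotated start (RefSeq, GRCm38.p6), read along the gene's strand. They lie at chr3:90052481-90052730 on the minus strand for Ubap2l, chr3:89418292-89418541 on the minus strand for Cks1b and chr3:90213465-90213714 on the plus strand for the first of 2 Rab13 starts. Capitals mark CCAAT, a box bound by NF-Y, and TTTGAA, the core of the cell cycle homology region, on either strand.
Ubap2l: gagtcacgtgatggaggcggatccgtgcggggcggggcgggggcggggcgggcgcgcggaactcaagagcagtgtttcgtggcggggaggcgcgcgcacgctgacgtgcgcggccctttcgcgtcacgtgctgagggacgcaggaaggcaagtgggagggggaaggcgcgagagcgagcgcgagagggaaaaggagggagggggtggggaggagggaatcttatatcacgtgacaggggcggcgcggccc
Cks1b: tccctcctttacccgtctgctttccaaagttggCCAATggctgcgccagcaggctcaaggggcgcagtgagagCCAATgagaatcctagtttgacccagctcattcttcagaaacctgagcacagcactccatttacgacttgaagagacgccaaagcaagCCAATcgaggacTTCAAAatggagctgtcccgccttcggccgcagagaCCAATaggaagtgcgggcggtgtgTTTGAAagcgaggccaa
Rab13: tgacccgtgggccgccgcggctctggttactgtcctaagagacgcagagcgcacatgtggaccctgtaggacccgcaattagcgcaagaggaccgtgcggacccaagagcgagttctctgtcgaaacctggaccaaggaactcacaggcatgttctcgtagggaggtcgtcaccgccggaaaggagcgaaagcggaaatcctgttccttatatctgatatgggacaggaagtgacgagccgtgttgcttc
Cks1b held CCAAT 4 times and TTTGAA 2 times, while the windows shown for Ubap2l and Rab13 held neither. The window of the second Rab13 start, at chr3:90220534-90220783 on the plus strand, held CCAAT 2 times and TTTGAA 1 time. The Ubap2l window was 71.2% G and C and the Cks1b window 54.4%, beside a median of 52.4% over all genes. GAAANNGAAA, the core of the interferon-stimulated response element, was found on either strand in 1 of 40 neighbours with a promoter (Hax1, 2.5%) and in 3.46% of all 27025 genes with a promoter. CCAAT was found in 24 of the 40 (60.0%), beside 37.5% of all genes, and TTTGAA in 7 (17.5%), beside 18.3%. Matches of different motifs were allowed to overlap, genes with several starts count once, and a match is only a match of letters.

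**Figure D2:**
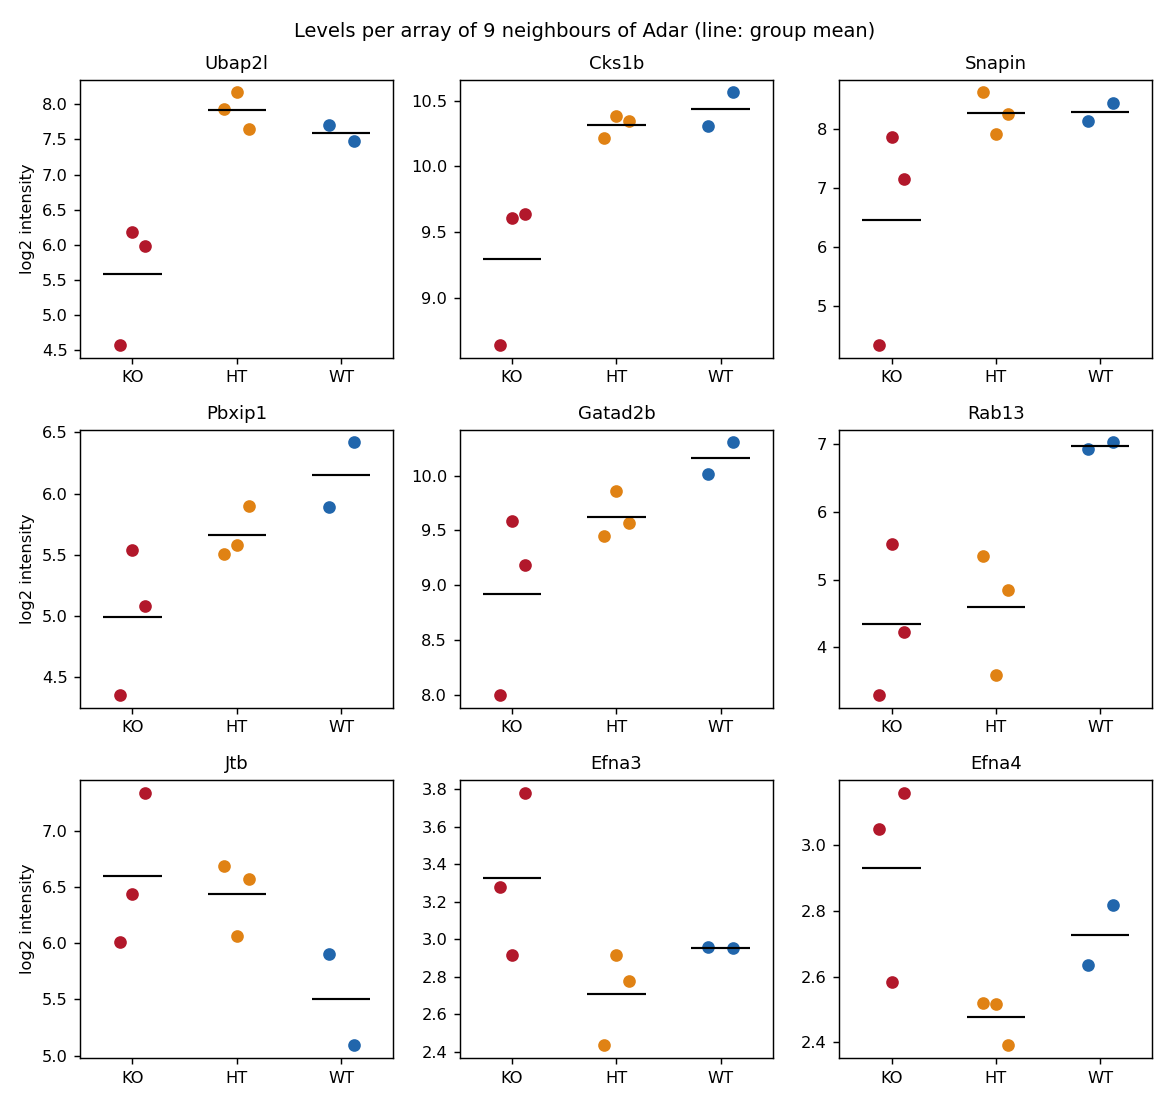
Log2 intensity on null (KO), heterozygous (HT) and wild-type (WT) arrays of the 9 neighbours with an unadjusted p under 0.05 in any comparison, with a point per array and a line at the group mean; each panel has its own axis, which does not start at 0. The null points of Ubap2l, Cks1b and Snapin lie below all others, and those of Rab13 overlap the heterozygous ones.

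Among genes of transcription, chromatin and RNA (10 measured), 0 passed and 2 stood under an unadjusted p of 0.05 against wild type, Ubap2l and Gatad2b, both lower in null cells, where 5.91% of all genes were lower by that measure. The median of the group was -0.42 in null against wild type, -0.28 against heterozygous and -0.32 in heterozygous against wild type. Gatad2b, a subunit of the NuRD deacetylase and remodelling complex, read 256, 769 and 580 on the null arrays, 698, 927 and 760 on the heterozygous and 1035 and 1262 on the wild-type arrays. Its null arrays lie below wild type but overlap heterozygous. The difference was -1.24 ± 0.44 against wild type (SE; limma, adjusted p = 0.548) and -0.92 ± 0.37 against all controls (adjusted p = 0.408). Another Gatad2b probe set ran the other way against wild type, with 32.4, 73.2 and 134 on the null arrays, 98.6, 195 and 167 on the heterozygous and 18.1 and 17.3 on the wild-type arrays. There null differed from wild type by 1.95 ± 0.58 (adjusted p = 0.432) and heterozygous by 3.06 ± 0.58 (adjusted p = 0.582). With the mean over its probe sets the gene's difference from wild type turned to 0.22.

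Ilf2, a nuclear protein of RNA-binding complexes, gave the only probe set among the 93 of all neighbours that passed the threshold. It is the dimmer of a pair, and it read 11.8, 46.2 and 27.0 on the null arrays, 149, 156 and 114 on the heterozygous and 163 and 174 on the wild-type arrays. All null arrays lay below all controls. It fell by 2.61 ± 0.40 log2 units (SE) relative to all controls (limma, n = 3 and 5, adjusted p = 0.0387), in a comparison where 0.582% of all probe sets passed. The call was lost without any 1 of wild-type arrays 1 and 2, heterozygous arrays 1, 2 and 3 and null array 3 (adjusted p = 0.0989, 0.0823, 0.114, 0.114, 0.0882 and 0.0759) and with an intensity trend (0.0613). Over all alternatives its adjusted p ran from 0.0110 to 0.114. Against wild type alone the difference was -2.78 ± 0.52 (adjusted p = 0.157) and against heterozygous alone -2.50 ± 0.47 (adjusted p = 0.120). The brighter Ilf2 probe set read 15.3, 142 and 111 on the null arrays, 175, 139 and 188 on the heterozygous and 188 and 227 on the wild-type arrays. There null array 2 lay just above the lowest heterozygous array. The brightest probe sets of Ilf2, Snapin and Ints3 are of a class whose probes can match more than 1 transcript.

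The remaining genes of this group overlapped between null and control arrays. Ints3, shared by the Integrator and a single-stranded DNA-binding complex, read 99.1, 206 and 171 on the null arrays, 251, 223 and 105 on the heterozygous and 209 and 323 on the wild-type arrays. Clk2, a kinase of splicing factors, read 90.3, 23.6 and 6.83 on the null arrays, against 25.7, 20.7 and 25.8 on the heterozygous and 31.7 and 44.6 on the wild-type arrays. Gon4l, a nuclear protein needed for B-cell development in mice, read 49.9, 77.7 and 1515 on the null arrays, against 115, 197 and 177 on the heterozygous and 115 and 100 on the wild-type arrays. Null array 1 is thus high for Clk2 and null array 3 for Gon4l. Crtc2, a coactivator of CREB, spanned 13.6 to 33.2 on the null arrays and 19.7 to 29.9 on the controls, and the Wnt coactivator Pygo2 spanned 34.4 to 72.6 on the null and 28.4 to 75.4 on the control arrays. Zbtb7b, which directs CD4 T-cell fate, spanned 7.23 to 12.2 on the null arrays and 7.26 to 10.2 on the controls. Creb3l4, a membrane-anchored transcription factor, was above background on no array.

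Among genes of mitochondria, metabolism, cell cycle and protein turnover (9 measured), 0 passed. Of these, 8 lay above 0 in null against wild type with a median of 0.75, and 8 also in heterozygous against wild type with a median of 0.52, while the median was 0.02 against heterozygous. Both comparisons with wild type use the same pair of arrays. Jtb, a membrane protein of cytokinesis, read 64.5, 86.9 and 162 on the null arrays, 103, 66.8 and 95.2 on the heterozygous and 60.0 and 34.1 on the wild-type arrays. Wild type lies below all others, and the difference of null from wild type was 1.10 ± 0.44 (SE; limma, adjusted p = 0.629). Hax1, a mitochondrial survival protein whose loss causes congenital neutropenia in humans, read 188, 684 and 913 on the null arrays, 538, 435 and 312 on the heterozygous and 373 and 228 on the wild-type arrays. Null array 1 lies below and the other two lie above all controls. Pklr, the pyruvate kinase of liver and red cells, read 31.2, 339 and 34.8 on the null arrays, 130, 193 and 77.1 on the heterozygous and 30.7 and 56.4 on the wild-type arrays. Mtx1, a protein of mitochondrial import, read 421, 34.1 and 434 on the null arrays, 97.1, 272 and 260 on the heterozygous and 33.1 and 164 on the wild-type arrays. Both genes were spread as widely within null as between groups.

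Ube2q1, a ubiquitin-conjugating enzyme, read 114, 276 and 44.8 on the null arrays, 144, 73.8 and 127 on the heterozygous and 81.3 and 101 on the wild-type arrays. A second, dimmer Ube2q1 probe set read 22.5, 15.0 and 13.0 on the null arrays, 33.3, 29.3 and 51.9 on the heterozygous and 29.4 and 28.8 on the wild-type arrays. There all null arrays lay below all controls, with a difference of -1.03 ± 0.26 (SE) that did not pass (limma, adjusted p = 0.179). Msto1, needed for mitochondrial distribution, read 22.0, 51.3 and 51.8 on the null arrays, 40.7, 111 and 36.1 on the heterozygous and 21.6 and 24.3 on the wild-type arrays. Groups overlap for the brightest probe sets of both Ube2q1 and Msto1 in null against wild type. Flad1, the FAD synthase, spanned 31.6 to 97.9 on the null arrays and 22.9 to 72.2 on the controls, and Dap3, of the small mitochondrial ribosome subunit, spanned 200.2 to 327 on the null and 99.0 to 335 on the control arrays.

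Among signalling adaptors, small GTPases, membrane traffic and cytoskeleton (13 measured), 0 passed, with medians of -0.50 in null against wild type and -0.25 against heterozygous. Snapin, a SNARE-associated subunit of BLOC-1 and the gene next to Ilf2, read 20.2, 234 and 143 on the null arrays, 395, 243 and 308 on the heterozygous and 283 and 349 on the wild-type arrays. All null arrays lay below all controls, null array 2 only just. The difference from all controls was -1.83 ± 0.71 (SE; limma, adjusted p = 0.397), and it was -0.77 without null array 1. A second Snapin probe set read 38.7, 25.1 and 36.2 on the null arrays, 81.0, 57.4 and 44.5 on the heterozygous and 66.0 and 82.1 on the wild-type arrays, with no overlap and a difference of -0.98 ± 0.25 (adjusted p = 0.184). Pbxip1, which binds PBX homeodomain proteins, read 20.4, 46.4 and 33.8 on the null arrays, 45.4, 47.9 and 59.7 on the heterozygous and 59.4 and 85.4 on the wild-type arrays. It differed by -1.16 ± 0.36 from wild type (adjusted p = 0.449) and by -0.87 ± 0.30 from all controls (adjusted p = 0.343), and null overlapped heterozygous. A second Pbxip1 probe set read 19.2, 21.2 and 25.6 on the null arrays, 19.6, 48.7 and 27.2 on the heterozygous and 40.6 and 12.1 on the wild-type arrays. There null overlapped both groups and differed by -0.02 from wild type and -0.27 from all controls.

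The adaptor Shc1, which links receptor tyrosine kinases to Ras, was spread widely in every group, with 125, 20.2 and 11.9 on the null arrays, 47.2, 121 and 59.1 on the heterozygous and 14.0 and 227 on the wild-type arrays. Krtcap2, a subunit of the oligosaccharyltransferase, read 212, 520 and 43.4 on the null arrays, 683, 531 and 356 on the heterozygous and 315 and 537 on the wild-type arrays. Dennd4b, an exchange factor of Rab proteins, read 15.3, 125 and 14.0 on the null arrays, 12.8, 13.4 and 21.7 on the heterozygous and 9.71 and 10.7 on the wild-type arrays. In these last genes a single null array stands apart, low for Krtcap2 and high for Dennd4b. Syt11, a vesicle protein, read 11.1, 131 and 5.83 on the null arrays, 18.9, 28.1 and 24.1 on the heterozygous and 13.8 and 93.9 on the wild-type arrays. Tropomyosin Tpm3 spanned 724 to 1219.6 on the null arrays and 870 to 1386 on the controls. Scamp3, a carrier protein of secretory membranes, spanned 94.0 to 114 on the null arrays and 47.9 to 115 on the controls. The Ras relative Rit1 spanned 20.7 to 35.3 on the null and 20.8 to 41.8 on the control arrays, and null and control arrays overlap for all 3. The adaptor She spanned 5.29 to 9.83 on the null arrays and 5.12 to 16.7 on the controls. Trim46 was above background on 3 arrays, with 6.28 to 9.73 on the null and 5.99 to 6.99 on the control arrays.

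Rusc1, an adaptor of signalling in neurites, gave discordant probe sets. Its brightest read 123, 36.2 and 12.5 on the null arrays, 36.0, 44.7 and 40.3 on the heterozygous and 29.4 and 31.3 on the wild-type arrays. Another read 6.42, 6.15 and 7.01 on the null arrays, 8.28, 7.33 and 7.15 on the heterozygous and 19.4 and 39.0 on the wild-type arrays, so that no groups overlap and wild type lies furthest off. The null arrays were all not well above background there, so null was at least 3.33-fold lower than wild type (limma, adjusted p = 0.0536), from the wild-type mean over the mean of the null arrays' backgrounds. The measured log2 means were 2.70 in null and 4.78 in wild-type cells. Heterozygous cells, above background on all arrays, differed from wild type by -1.86 ± 0.28 (SE; adjusted p = 0.438). The difference of null from wild type passed without wild-type array 1 (0.00911) or 2 (0.0455), and that of heterozygous without wild-type array 1 (0.0170), where the remaining wild-type array is assumed to vary like the other groups.

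**Figure D3:**
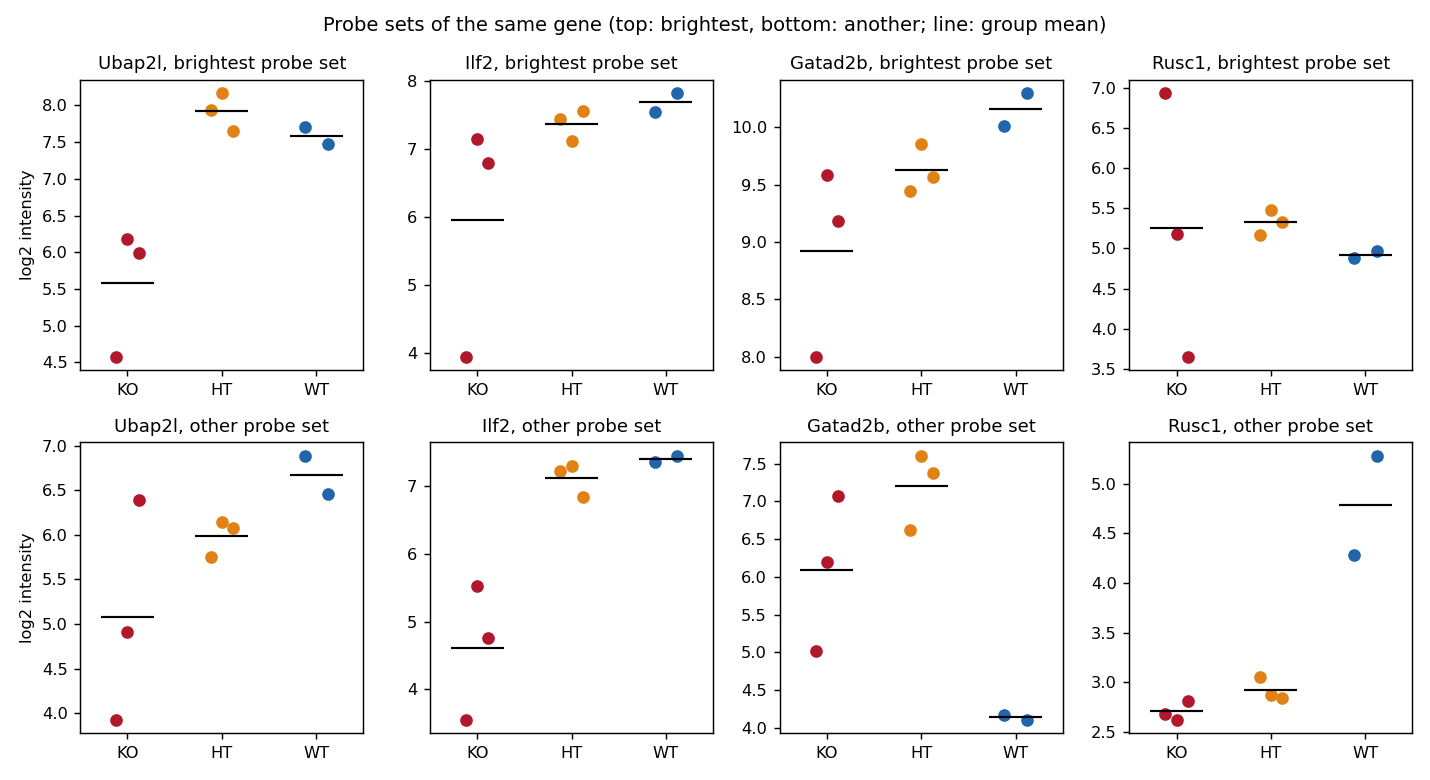
Log2 intensity of the brightest probe set (top) and another probe set (bottom) of Ubap2l, Ilf2, Gatad2b and Rusc1 on null (KO), heterozygous (HT) and wild-type (WT) arrays, with a point per array and a line at the group mean; each panel has its own axis. The null arrays of Gatad2b lie below wild type on top (linear 256 to 769, against 1035 and 1262) and above it at the bottom (32.4 to 134, against 18.1 and 17.3).

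Among surface receptors, ligands, channels and transporters (14 measured), 0 passed, with medians of 0.10 in null against wild type and -0.01 against heterozygous. The ephrin-A ligands lie side by side. Efna3 read 9.70, 7.54 and 13.8 on the null arrays, 5.41, 7.54 and 6.85 on the heterozygous and 7.79 and 7.74 on the wild-type arrays. Null array 2 equals heterozygous array 2 to 3 digits, and the difference was 0.62 ± 0.25 from heterozygous (SE; limma, adjusted p = 0.420) and 0.52 ± 0.22 from all controls (adjusted p = 0.427). Efna4 read 8.28, 5.99 and 8.93 on the null arrays, 5.73, 5.72 and 5.25 on the heterozygous and 6.21 and 7.04 on the wild-type arrays. Its heterozygous arrays were all not well above background and a single null array was above it, so no fold is given for null against heterozygous (limma, adjusted p = 0.417). The background itself was higher on the null arrays (7.40 to 9.29) than on the heterozygous (6.20 to 6.98). Efna1 read 16.5, 11 and 16.0 on the null arrays, 13.0, 12.2 and 14.3 on the heterozygous and 14.0 and 38.3 on the wild-type arrays.

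Atp8b2, a phospholipid flippase, read 12.7, 30.7 and 9.81 on the null arrays, 21.9, 17.6 and 16.8 on the heterozygous and 9.52 and 9.66 on the wild-type arrays, lowest in wild type. Chrnb2, the nicotinic receptor subunit next to Adar on the higher-coordinate side, read 9.14, 8.57 and 10.1 on the null arrays, 8.54, 7.14 and 17.5 on the heterozygous and 50.9 and 8.99 on the wild-type arrays. Its high reading is confined to wild-type array 1 among these 8. Il6ra, the interleukin-6 receptor, spanned 7.37 to 11.1 on the null arrays and 7.26 to 15.7 on the controls, and the zinc importer Slc39a1 spanned 33.8 to 123 on the null and 47.6 to 138 on the control arrays. The metalloprotease Adam15 spanned 8.81 to 17.8 on the null arrays and 8.98 to 18.6 on the controls. Slc27a3, of the fatty acid transport family, was above background on 3 arrays and the potassium channel Kcnn3 on 1. The natriuretic peptide receptor Npr1, Dcst1, the thrombospondin Thbs3 and the channel Hcn3 were above background on none.

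Null arrays differed from each other at these genes more than heterozygous arrays did. The SD of the log2 values was larger in null than in heterozygous cells for 39 of 46 neighbours (84.8%), beside 75.6% of all genes, a difference that was not tested. The median SD of the neighbours was 0.58 in null, 0.32 in heterozygous and 0.23 in wild-type cells, beside 0.35 in null, 0.18 in heterozygous and 0.22 in wild-type cells over all genes. A range over 4-fold was seen in 14 neighbours among the null arrays, in 0 among the heterozygous arrays and in 7 among all controls. Between the 2 wild-type arrays alone, Shc1, Syt11, Chrnb2 and Mtx1 ranged 16.2-, 6.82-, 5.67- and 4.96-fold. The share of all genes with such ranges is not given here, so these counts are a description only. No single null array accounts for the count of 14. Null array 1 was the one set apart for 6 genes, low for Hax1, Ilf2 and Snapin and high for Shc1, Clk2 and Rusc1. Null array 2 was set apart for 5, high for Rab13, Dennd4b, Pklr and Syt11 and low for Mtx1. All of these are readings of the brightest probe sets. The other Pklr and Mtx1 probe sets given above do not repeat the pattern of null array 2. Null array 3 was set apart for 3, low for Ube2q1 and Krtcap2 and high for Gon4l, which had the widest range at 30.4-fold.

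**Figure D4:**
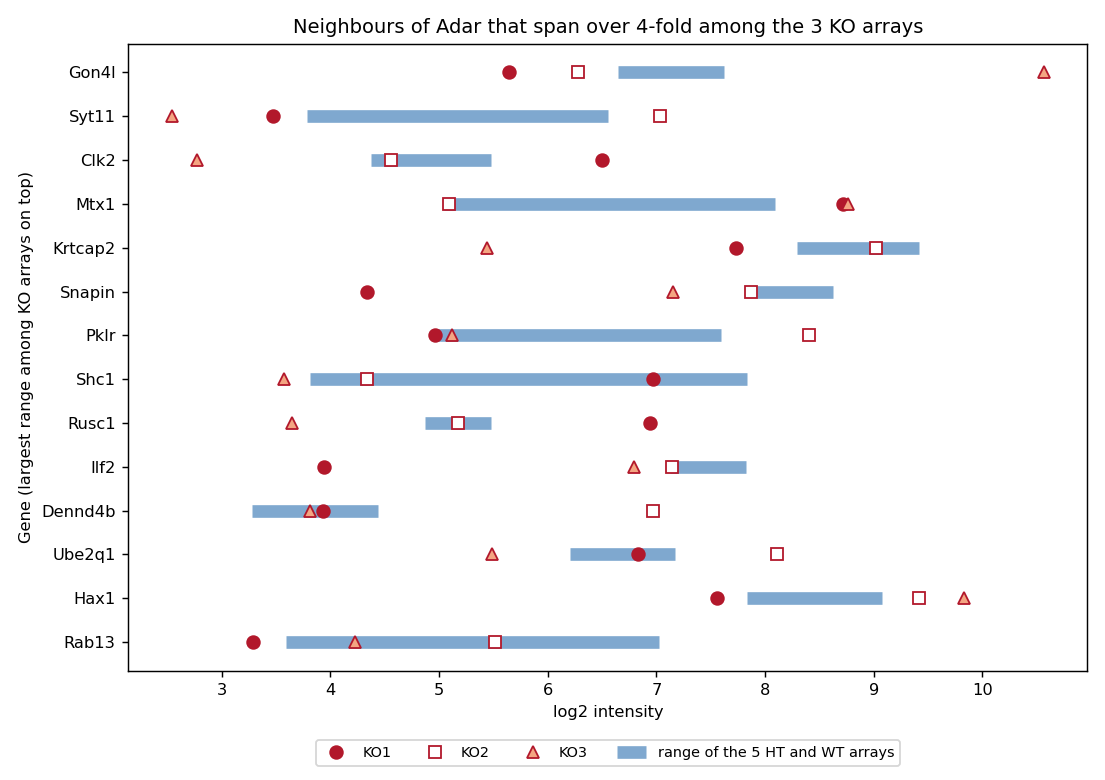
Log2 intensity of the 14 neighbours that range over 4-fold among the 3 null (KO) arrays, with a symbol per null array and a bar over the range of the 5 heterozygous (HT) and wild-type (WT) arrays. Gon4l has the widest null range (30.4-fold) beside 1.97-fold among the controls, while Shc1 and Rab13 range more widely among the controls (16.2-fold and 10.8-fold).

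The groups were also compared by overlap of their arrays. Against wild type, 7 neighbours lay wholly above (15.2%, beside 9.49% of all genes) and 8 wholly below (17.4%, beside 10.8%). Over genes above background on all arrays, the shares were 8.61% above and 15.5% below, beside 13.3% and 26.7% of the 30 such neighbours. None of the differences in shares by overlap was tested. Against heterozygous 1 lay above and 3 below (2.17% and 6.52%, beside 12.2% and 10.3%), and against all controls 0 above and 3 below (0% and 6.52%, beside 4.19% and 4.95%). The 3 were Ubap2l, Cks1b and Snapin. In heterozygous against wild type 8 lay above and 7 below (17.4% and 15.2%, beside 12.4% and 17.5%). Some of these genes were dim. Of the 7 above wild type in null cells, Npr1 and Dcst1 were above background on no array and Trim46 on 3. The 1 above heterozygous, Efna4, was above background on 1 array. In heterozygous against wild type, Dcst1 among those above and Creb3l4 among those below were above background on no array.

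Since null and heterozygous mice both carry the segment around a targeted allele, both were joined and set against wild type, a comparison added after the values were seen. The 3′ to 5′ ratio of Gapdh, which rises as RNA is degraded or primed short, splits the arrays in the same way. It was 7.45, 8.73 and 7.67 on the null arrays, 5.78, 4.78 and 9.0 on the heterozygous and 4.39 and 4.32 on the wild-type arrays. Its part in this joined comparison, or in null against wild type, was not tested. All male arrays also fall on the joined side, and the part of sex in the joined comparison was not tested. Of the 46 neighbours, 6 (13.0%) did not overlap, beside 6.79% of all genes. They were Atp8b2, Jtb, Dennd4b and Dcst1 as higher, the last of them above background on no array, and Rab13 and Gatad2b as lower. Over probe sets it was 13 of 93 (14.0%), beside 6.51% of all probe sets, and probe sets of 1 gene are not independent. These differences in shares were not tested. No probe set of a neighbour passed the adjusted threshold (limma; 0.00666% of all probe sets and 0% of genes passed). At an unadjusted p under 0.05 stood 2 of 46 neighbours, beside 4.76% of all genes, and 5 of 93 probe sets, beside 4.34% of all probe sets. The smallest p was that of the Rusc1 probe set given above (-1.97 ± 0.25, adjusted p = 0.194), whose 3 null arrays were not well above background, so that the size of its difference is not exact, and Rab13 differed by -2.51 ± 0.61 (adjusted p = 0.910).

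Genes of the same stretch outside the list, and the rest of the chromosome, are given for comparison. The first of these sets lies within the same segment as the neighbours. Of 11 further genes between the outermost neighbours, among them Fdps and Pmvk of isoprenoid synthesis, Muc1 and Rps27, 0 passed and 0 had an unadjusted p under 0.05 in any of the 4 comparisons (limma). Their median differences ran from -0.14 in null against wild type to -0.02 in heterozygous against wild type. Several of the 11 were dim, so their counts say little. Muc1 read 4.83 to 5.96 and Rps27 5.26 to 11.5 over all arrays, beside backgrounds of 6.20 to 9.29. Over the other 855 genes of chromosome 3, 1 passed as higher and 1 as lower in null against wild type, 1 as higher and 4 as lower in null against heterozygous, and 2 as higher and 4 as lower in null against all controls. That is 0.234%, 0.585% and 0.702% of them, beside 0.517%, 0.770% and 0.934% of all genes, and 0 passed in heterozygous against wild type (limma; 25 higher and 25 lower had an unadjusted p under 0.05). Gbp7 was the higher gene in the first pair of comparisons. Higher against all controls were the interferon-inducible GTPases Gbp3 and Gbp7, which the gene table places 499 and 498 protein-coding genes from Adar.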

How the data were processed

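Per the submitters' processing notes, the authors summarised the arrays with RMA; the sources used here name no software or version. What was deposited is a linear intensity for each probe set. Log2 was taken of them without further scaling. Of 45101 probe sets, 64 controls were left out and 45037 tested; 34945 named 1 gene, 932 several and 9160 none in the platform annotation. Symbols were updated by gene number (34737 matched). All 8 per-sample columns were used.

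A 3-group linear model (5 residual degrees of freedom; limma 3.58.1 in R 4.3.3, eBayes with no trend) gave the differences between genotypes, and a 2-group model (6 degrees) those of null from all controls. Two-sided p-values were adjusted by the Benjamini-Hochberg method across the tested probe sets, and 0.05 was the threshold. Errors of differences are limma standard errors. The 3 groups share 1 estimate of the spread, so errors in heterozygous against wild type include the spread of the null arrays. With the arrays of the 2 groups only, 4050 probe sets had an unadjusted p under 0.05 in heterozygous against wild type (limma), beside 2418 in the 3-group model. In null against wild type it was 2197 beside 3437. Replicates were numbered in accession order and pair nothing.

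The neighbours, roles and marker lists were chosen with earlier results of these data known. A neighbour is given a fold change and test where its unadjusted p is under 0.05 (17 results over 9 genes); probe sets other than the brightest were chosen after their values were seen. Promoter windows and gene order come from RefSeq tables (GRCm38.p6). Alternatives were quantile and cyclic loess normalization, a pseudocount of 32, filters on dim probe sets, the mean of probe sets, 1 brightest probe set per gene, array weights, an intensity trend, a sex covariate from the arrays' sex-linked transcripts, the arrays of the 2 groups only, and each array left out.

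On simulated data with the same groups, shifts of 1, 2, 4 or 6 log2 units were given to 50 probe sets apiece. Null against wild type called 14%, 50%, 72% and 86% of them and 5 unshifted ones. Null against all controls called 36%, 56%, 86% and 98% and 9 unshifted ones. In the simulation all arrays of a probe set had the same spread, and shifted probe sets were drawn from all those tested, dim ones included. In the data the median SD over all genes was 0.35 in null and 0.18 in heterozygous cells. The simulated shares therefore need not hold for the neighbours. The number of arrays limits the precision.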

Additional observations from a re-analysis of the deposited data

Results flagged for a closer look

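A single wild-type array stood apart from the other controls for 2 of the 46 neighbours (4.35%), and chance flags about 1 in 20 groups. She, an SH2 adaptor, read 5.29, 5.56 and 9.83 on the null arrays, while among the controls wild-type array 2 read 16.7 and the other 4 read 5.12 to 6.0. Efna1, an ephrin-A ligand, read 16.5, 11 and 16.0 on the null arrays, while wild-type array 2 read 38.3 and the other 4 controls 12.2 to 14.3. Both are the same array.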

How the results depend on the processing

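No paired analysis was possible because replicate numbers were given in accession order and pair no arrays. The counts of neighbours given here are read from the brightest probe set, or from the mean of probe sets in that alternative. Read so, no neighbour passed in null against wild type or in heterozygous against wild type under any of the 19 alternatives. Other probe sets of Rusc1 and Ilf2 did pass in null against wild type with certain arrays left out. Against heterozygous, the count was 1 (Ubap2l) with the sex covariate (adjusted p = 0.0485) and 0 to 1 when each array was left out, 1 without null array 1 (0.0364). Against all controls, it was 1 (Ubap2l) with quantile (0.0275) or cyclic loess normalization (0.0366), filters at the median level (0.0335) or above background (0.0381) and 1 brightest probe set per gene (0.0387), and 1 (Cks1b) with the mean of probe sets (0.0489); it was 0 to 1 when each array was left out, 1 (Ubap2l) without null array 1 (0.0232) or 2 (0.0311). Of the 17 named results 1 reversed: Gatad2b in null against wild type, 0.22 with the mean of probe sets (adjusted p = 0.819). That alternative joins probe sets that run in opposite directions. With it Ubap2l differed by -0.67 from wild type and -0.53 from heterozygous. The neighbours' medians moved by less than the typical spread of a single neighbour between replicate arrays (0.28 log2 units), but their sign was not stable. They ran from -0.16 to 0.12 in null against wild type and from -0.22 to 0.05 against heterozygous. The range was -0.22 to 0.05 against all controls and -0.04 to 0.18 in heterozygous against wild type. Efna4 has no value under either filter. Over all probe sets the counts were 147 in null against wild type (4 to 158 under alternatives, 65 to 340 with arrays left out), 226 against heterozygous (105 to 228, 63 to 581), 1 in heterozygous against wild type (0 to 5, 0 to 164) and 262 against all controls (199 to 311, 156 to 792). Against heterozygous 118 were higher and 108 lower, beside 133 and 58 with quantile and 143 and 43 with cyclic loess normalization; against all controls 148 and 114, beside 180 and 66 and 200 and 54; against wild type 99 and 48, beside 111 and 37 and 120 and 31. The causes were not tested.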
